A study of Mus musculus with 7 samples.

Results

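The genes that decide whether a resting cell enters the division cycle were examined in microglia, the resident macrophages of the brain, taken from inside and outside a graft of healthy neurons in mice that deposit amyloid. The 10 genes, chosen by name, were Ccnd1, Ccnd2, Ccnd3, Cdk4, Cdk6, Cdkn1a, Cdkn1b, Cdkn2a, Cdkn2c and Rb1, out of 55341 gene names in the count table. All 10 passed the filter on low counts that left 15257 genes to be tested.

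The hosts were female 5xFAD mice, in which human APP and PS1 with familial Alzheimer's disease mutations are driven by the neuronal Thy1 promoter, on a C57BL/6 background. Cortical neurons of C57BL/6 WT embryos were injected into the host cortex. CD11b+CD45low cells were sorted 4 weeks later, at a labelled age of 14 weeks, from the graft itself (inside graft, 3 libraries) and from cortical pieces near it (outside graft, 4 libraries). All 7 libraries therefore come from 5xFAD hosts that had received a graft, and no host without a graft is compared here. The labels do not say whether each library came from its own mouse, so the P values below measure the spread between these libraries, which may in part be technical.

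A D-type cyclin binds CDK4 or CDK6, and the kinase then phosphorylates the retinoblastoma protein, the product of Rb1. Unphosphorylated retinoblastoma protein holds E2F transcription factors in check, so its phosphorylation releases the genes for DNA synthesis, cyclin E and cyclin A among them. INK4 inhibitors, encoded here by Cdkn2a and Cdkn2c, bind CDK4 and CDK6 directly, whereas the CIP/KIP inhibitors p21 (Cdkn1a) and p27 (Cdkn1b) bind cyclin-CDK complexes and mainly block CDK2. Adult microglia are long-lived and divide rarely, but they can proliferate locally around injury and around amyloid plaques. Much of this control acts on the proteins, through phosphorylation and degradation, which RNA counts do not measure.

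Between 18644807 and 25882122 reads per library were counted on genes. Levels are given as CPM, the count scaled to a common library size with TMM factors, within a gene, and as RPKM, the same per kilobase of annotated exon, between genes. The microglial gene Cx3cr1 ranged from 6189 to 6907 CPM inside and from 6946 to 8266 CPM outside the graft, Itgam (CD11b) from 310 to 350 and from 259 to 389 CPM, and Ptprc (CD45) from 530 to 566 and from 352 to 476 CPM, so the markers of the sorted cell were present in every library. The summed neutrophil markers were 3708, 386 and 7915 CPM in inside grafts 1, 2 and 3 against 0.266 to 169.8 CPM outside, and the monocyte markers were 657, 77.4 and 1367 CPM against 6.55 to 27.3 CPM. The gating the study describes includes antibodies to Ly6C and Ly6G, which would leave out monocytes and neutrophils. Outside graft 1 stood apart, with the lowest total and a weight of 0.448 in voomWithQualityWeights, which gives noisy libraries less influence. In bulk RNA, fewer cells of a type and less RNA per cell cannot be told apart.

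None of the 10 genes passed a test between the inside and outside graft libraries. At an adjusted P below 0.05, 0 of 10 were called by edgeR's quasi-likelihood test, which called 0.0983% of all genes tested, 0 of 10 by voomWithQualityWeights, which called 0.492%, and 0 of 10 by DESeq2, which called 2.75%. At the 0.01 that the study used, voomWithQualityWeights called 0 of the 10, against 0.0197% of all genes. At an unadjusted P below 0.05 edgeR returned 1 of the 10 (Ccnd2), against 9.55% of all genes, and voomWithQualityWeights 1 (Cdkn2c), against 12.2%. By the edgeR fold change 5 genes were higher and 5 lower inside the graft, with a median log2 fold change of 0.051, against -0.0064 over all genes tested. In 6 of the 10 (Ccnd1, Ccnd3, Cdk4, Cdk6, Cdkn1b and Rb1) the 95% interval of the edgeR log2 fold change lay wholly between -1 and 1, as it did for 55.1% of all genes, so for these a change above 2-fold was outside the interval. For Ccnd2, Cdkn1a, Cdkn2a and Cdkn2c the interval reached beyond 1 or -1.

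**Figure D1:**
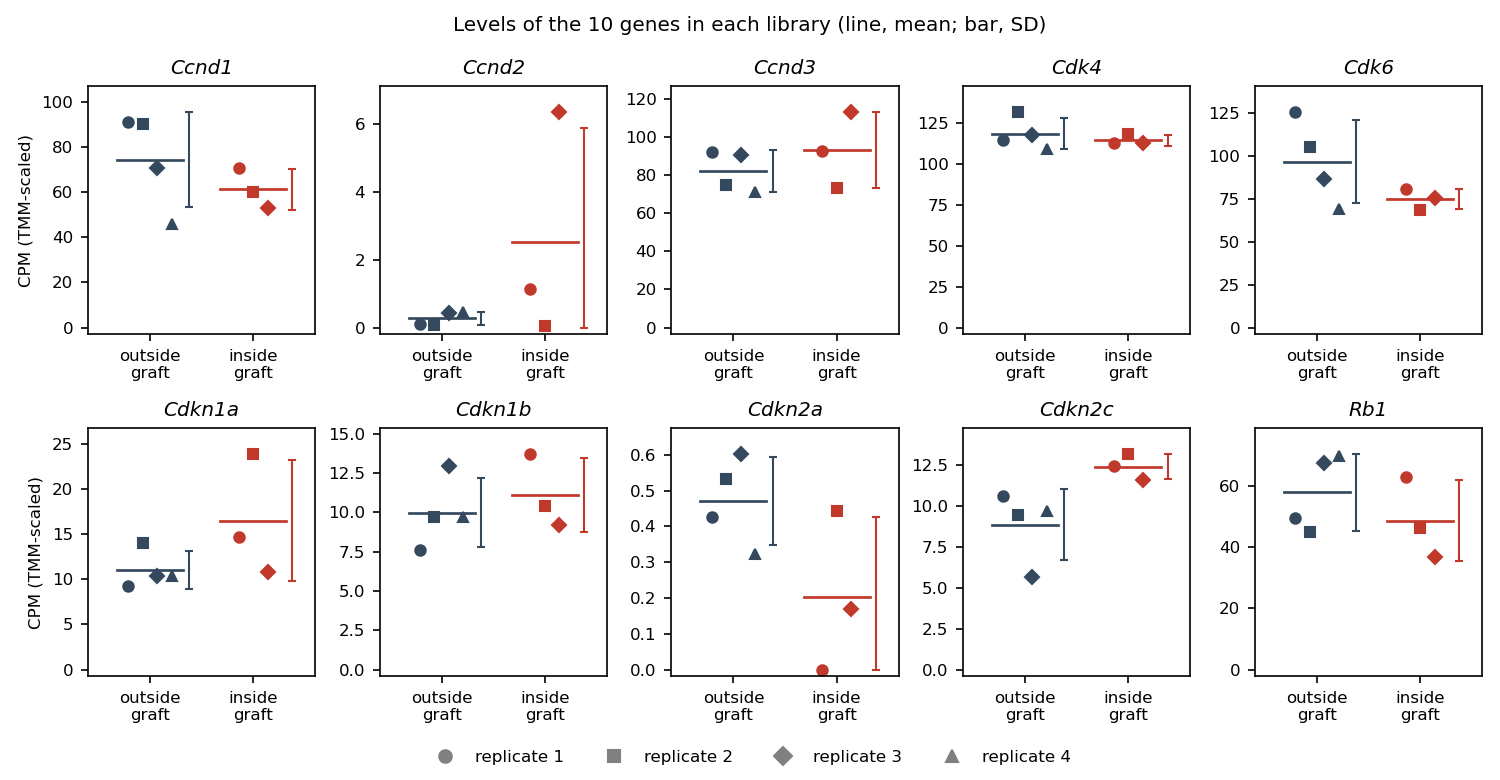
CPM (vertical axes, linear, from 0) of the 10 genes in the 4 outside graft (dark) and 3 inside graft (red) libraries, with the shape giving the replicate, lines the means and bars 1 SD (drawn down to 0 at most). Only Cdkn2c has all inside libraries above all outside libraries, and the mean of Ccnd2 inside the graft comes mostly from inside graft 3.

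Cdkn2a is the one gene of the 10 that makes 2 unrelated proteins from separate start sites, p19ARF from the upstream first exon (chr4:89294334-89294653) and p16INK4a from the downstream one (chr4:89281986-89282192), on the minus strand of GRCm38. Both of its annotated transcripts have 3 exons and the deposited count pools them, so a Cdkn2a value below is never that of p16INK4a alone. The bases before each start site are shown because each product starts from its own site, and those of E2f7 because it had the largest fold change of the E2F genes. Capitals mark E2F letters (TTTCGCGC, TTTGGCGC, TTTCCCGC or TTTGCCGC, on either strand). Sequences are from RefSeq on GRCm38.p6, on the strand of the gene.
Cdkn2a, before the p19ARF start, chr4:89294654-89294869, minus strand: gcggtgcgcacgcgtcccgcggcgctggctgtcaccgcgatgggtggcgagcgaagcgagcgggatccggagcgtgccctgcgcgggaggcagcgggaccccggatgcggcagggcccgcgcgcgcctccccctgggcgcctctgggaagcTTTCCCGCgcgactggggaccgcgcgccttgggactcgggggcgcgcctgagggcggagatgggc
Cdkn2a, before the p16INK4a start, chr4:89282193-89282442, minus strand: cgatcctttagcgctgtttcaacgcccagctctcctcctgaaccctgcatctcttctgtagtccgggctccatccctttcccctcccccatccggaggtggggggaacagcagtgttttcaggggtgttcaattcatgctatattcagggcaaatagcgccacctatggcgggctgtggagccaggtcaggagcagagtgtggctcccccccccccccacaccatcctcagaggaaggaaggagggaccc
E2f7, chr10:110745189-110745438, plus strand: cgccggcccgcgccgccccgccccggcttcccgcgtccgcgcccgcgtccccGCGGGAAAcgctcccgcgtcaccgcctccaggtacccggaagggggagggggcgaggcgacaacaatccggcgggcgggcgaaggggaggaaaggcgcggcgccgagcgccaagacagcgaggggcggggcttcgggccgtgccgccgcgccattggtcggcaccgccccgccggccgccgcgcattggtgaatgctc
The letters start at position -99 from the RefSeq start of the p19ARF transcript and at -198 from that of E2f7, and the window of the p16INK4a start holds none. The p19ARF sequence shown stops at the edge of the annotated first exon given above. That edge leaves out the last 34 bases before the RefSeq start. They occur in 744 of 32851 RefSeq windows of 300 bases (2.265%) and in 1 of the 11 windows that cover 7 of the 10 genes. A match is a string of letters and not a measured site, and no factor's binding was measured.

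Among the D cyclins, Ccnd1 and Ccnd3 carried nearly all of the RNA and Ccnd2 next to none. Cyclin D1, the sensor of growth-factor signals in many cell types, had 70.8, 60.1 and 52.97 CPM in inside grafts 1 to 3 and 91.1, 90.1, 70.6 and 46.1 CPM in outside grafts 1 to 4. The lowest value was an outside library and the groups overlapped. The means were 61.3 ± 8.98 CPM (SD, n = 3) and 74.5 ± 21.1 CPM (SD, n = 4), with an edgeR log2 fold change of -0.28 (SE 0.23, 95% interval -0.79 to 0.23, adjusted P = 0.790). In voomWithQualityWeights it was -0.058 (adjusted P = 0.958). Ccnd1 (ENSMUSG00000070348.5) lies on the minus strand at chr7:144929931-144939925. It shares 1100 exon bases with LTO1 on the opposite strand, and counting ignored strand. LTO1 itself was at 33.0 CPM inside the graft and 32.9 CPM outside it, less than Ccnd1 in each group.

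Cyclin D3, the D cyclin known for its role in blood-cell development, had 92.9, 73.5 and 113 CPM inside and 92.4, 74.8, 90.8 and 71.1 CPM outside the graft. Inside graft 3 was the highest of the 7 libraries, while inside graft 2 fell within the outside range. The means were 93.2 ± 19.9 and 82.3 ± 10.9 CPM and the edgeR log2 fold change was 0.18 (SE 0.17, 95% interval -0.19 to 0.56, adjusted P = 0.824). Ccnd3 (ENSMUSG00000034165.16, chr17:47505051-47599691, plus strand) shares 361 exon bases with Bysl. Its pseudogene Ccnd3-ps, identical over 96.3% of an 881-base match, was given at most 2 counts in a library, and reads that fit both places were not counted.

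Cyclin D2, the third of the family, was counted 29, 1 and 151 times in inside grafts 1 to 3 and 2, 2, 11 and 11 times in outside grafts 1 to 4. These counts equal 1.14, 0.0443 and 6.35 CPM inside and 0.106, 0.0889, 0.442 and 0.445 CPM outside. Inside graft 3 held most of the reads, inside graft 1 was next, and inside graft 2 was the lowest of all 7, so the groups overlapped. The exact Poisson 95% intervals, which cover counting error only, were 5.38 to 7.45 CPM in inside graft 3, 0.761 to 1.63 CPM in inside graft 1 and 0.00112 to 0.247 CPM in inside graft 2, so the inside libraries differed from one another beyond counting error. Their mean was 2.51 ± 3.37 CPM (SD, n = 3) against 0.271 ± 0.200 CPM (SD, n = 4) outside.

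The edgeR log2 fold change of Ccnd2 was 3.17 (SE 1.22, 95% interval 0.45 to 5.89, adjusted P = 0.420 with Benjamini-Hochberg over all genes), the largest in size of the 10. In voomWithQualityWeights it was 1.26 (95% interval -1.84 to 4.36, adjusted P = 0.800). Without inside graft 3 it was 1.10 in edgeR and -0.11 in voomWithQualityWeights, so its size and, in the second test, its direction rested on that library. Inside grafts 3 and 1 were also the libraries with the most neutrophil, monocyte and border-associated macrophage markers (121 and 113 CPM of the last, against 16.7 CPM in inside graft 2 and 5.95 to 17.8 CPM outside). The part of these cells in the Ccnd2 counts was not tested. The monocyte receptor gene Ccr2 had 31.8, 4.26 and 72.8 CPM inside and 4.05 to 18.1 CPM outside, and Mrc1, a marker of border-associated macrophages, had 61.2, 7.80 and 48.5 CPM against 4.18 to 14.2 CPM.

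**Figure D2:**
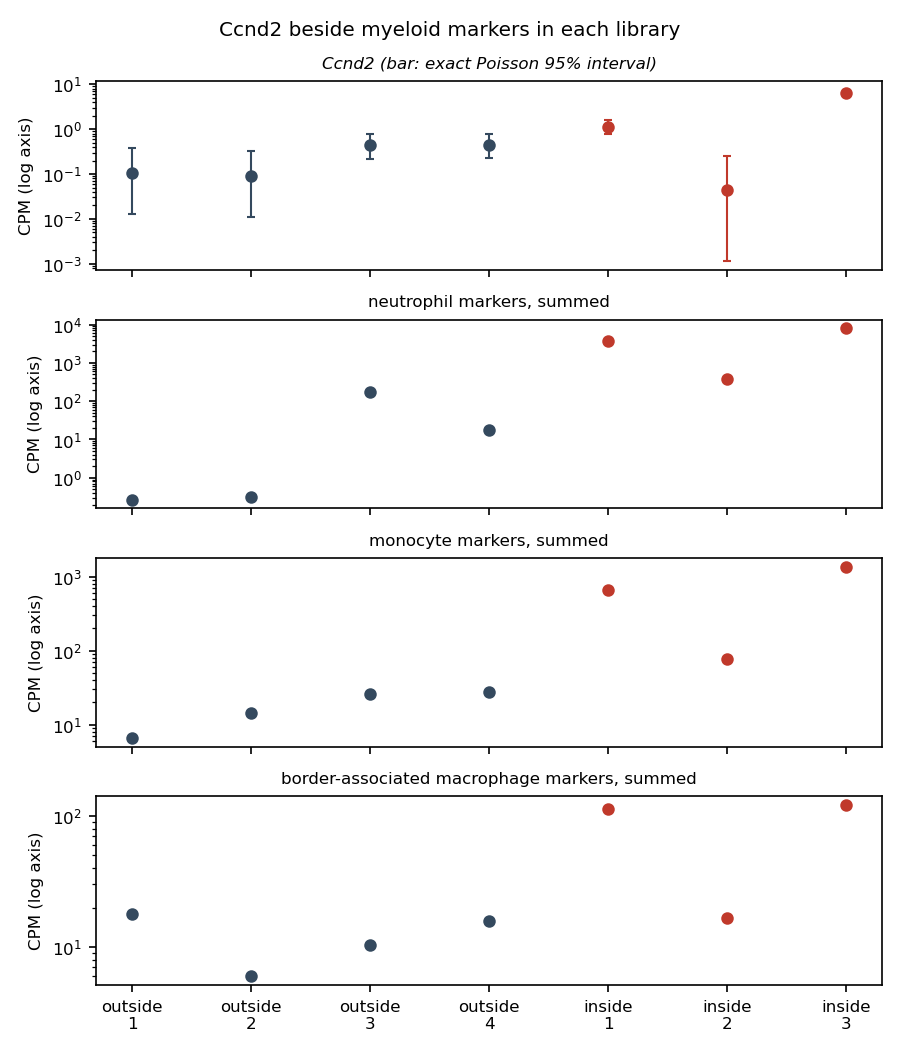
CPM (vertical log axes) of Ccnd2, with exact Poisson 95% intervals as bars, above the summed CPM of neutrophil, monocyte and border-associated macrophage markers, in the 4 outside (dark) and 3 inside graft (red) libraries. Inside grafts 1 and 3 have the highest values in all 4 panels, and inside graft 2 has 1 count of Ccnd2.

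Ccnd2 (ENSMUSG00000000184.12, chr6:127125162-127152193, minus strand) shares 372 exon bases with Gm43126 and 368 with 9330179D12Rik, both annotated as antisense. These genes had 0 counts in all 7 libraries, apart from 17 counts of 9330179D12Rik in outside graft 1. The grafted cells were embryonic neurons, and Dcx, a gene of immature neurons, had 0 counts in all 3 inside libraries and 0 to 0.532 CPM outside. The summed markers of neural progenitors and immature neurons were 8.94 to 16.7 CPM inside and 2.21 to 12.7 CPM outside, nearly all from Nes. The lymphocyte genes Cd3e and Cd79a reached at most 0.0443 and 1.35 CPM inside the graft and at most 0.0532 and 0.482 CPM outside. The genes most like Ccnd2 over the 7 libraries, by the root mean squared difference of centred log2(CPM + 1), were Tspoap1 (0.174), Gm21188 (0.204) and Rab3d (0.210).

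As shares of summed D cyclin RPKM, which corrects for the different exon lengths, Ccnd1 made up 58.4%, 60.3% and 45.3% in inside grafts 1 to 3 and 64.7%, 69.2%, 59.1% and 54.6% in outside grafts 1 to 4. Ccnd3 made up 44.2% ± 6.75 (SD, n = 3) inside and 37.99% ± 6.28 (SD, n = 4) outside, and Ccnd2 at most 2.72% in any library, reached in inside graft 3. Ccnd1 thus exceeded Ccnd3 in 6 of 7 libraries, the exception being inside graft 3. The summed D cyclin level was 23.9 ± 2.44 RPKM inside and 25.2 ± 5.19 RPKM outside the graft, a difference smaller than either SD. On the CPM scale, which does not correct for length, Ccnd3 exceeded Ccnd1 in every library except outside graft 2, with mean shares of 59.0% inside and 53.04% outside.

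Of the kinases, Cdk4 varied little between libraries and Cdk6 more. Cdk4 had 113, 118 and 113 CPM in inside grafts 1 to 3 and 115, 132, 118 and 109 CPM outside, where both the highest and the lowest value of the 7 lay. Its means were 114 ± 3.37 and 118 ± 9.57 CPM, with an edgeR log2 fold change of -0.048 (SE 0.11, 95% interval -0.29 to 0.20, adjusted P = 0.947), the narrowest interval of the 10. Cdk4 (ENSMUSG00000006728.12, chr10:127063534-127067920, plus strand) shares 641 exon bases with Tspan31, at 142 CPM in the inside and 137 CPM in the outside libraries. The division of reads over these bases between the genes was not measured.

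Cdk6, the related kinase that is prominent in blood cells, had 80.5, 68.6 and 75.4 CPM inside and 125, 105, 86.6 and 68.9 CPM outside the graft. Of the outside libraries 3 lay above all inside libraries and outside graft 4 lay among them. The means were 74.8 ± 5.97 and 96.5 ± 24.3 CPM and the edgeR log2 fold change was -0.37 (SE 0.19, 95% interval -0.79 to 0.059, adjusted P = 0.596). The highest value was that of outside graft 1, and in voomWithQualityWeights, which gave this library the least weight, the log2 fold change was -0.18 (adjusted P = 0.771). Cdk6 (ENSMUSG00000040274.11, chr5:3341485-3531008, plus strand) shares 368 exon bases with the antisense gene Gm17590, at 3.64 CPM inside and 4.38 CPM outside. Per length, Cdk4 exceeded Cdk6 in every library, by 6.63 ± 0.727 times inside and 5.50 ± 1.20 times outside the graft.

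Of the CIP/KIP inhibitors, Cdkn1a differed more in its means than Cdkn1b. Cdkn1a, which encodes p21 and is a well-known target of p53, had 14.7, 23.9 and 10.8 CPM inside and 9.27, 14.0, 10.3 and 10.3 CPM outside the graft. Inside graft 2 stood above the rest and inside graft 3 lay within the outside range. The means were 16.5 ± 6.70 and 10.99 ± 2.10 CPM, with a log2 fold change of 0.58 (SE 0.30, 95% interval -0.075 to 1.24, adjusted P = 0.586) in edgeR and 0.53 (adjusted P = 0.478) in voomWithQualityWeights. Without inside graft 2 the edgeR value was 0.22. Inside graft 2 was also the inside library with the fewest neutrophil and monocyte markers, and a relation of Cdkn1a to them was not tested. Cdkn1a (ENSMUSG00000023067.14, chr17:29090976-29100727, plus strand) shares 273 exon bases with AC167363.2, which had at most 17 counts in a library.

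Cdkn1b encodes p27, which holds cells in quiescence. It had 13.7, 10.4 and 9.17 CPM inside and 7.61, 9.69, 12.9 and 9.71 CPM outside the graft, with overlapping groups and means of 11.1 ± 2.36 and 9.99 ± 2.20 CPM. Its edgeR log2 fold change of 0.15 (SE 0.27, 95% interval -0.46 to 0.76, adjusted P = 0.923) became -0.031 without inside graft 1. Cdkn1b (ENSMUSG00000003031.14, chr6:134920401-134925513, plus strand) overlaps no other annotated gene.

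Of the INK4 inhibitors, Cdkn2c was the one gene of the 10 whose groups did not overlap, with every inside library above every outside library. This order was found in 5.65% of all genes tested, the opposite one in 5.03%, and either in 10.7%. Cdkn2c, which encodes p18INK4c, had 12.5, 13.2 and 11.6 CPM inside and 10.6, 9.46, 5.67 and 9.71 CPM outside the graft. The gap between the lowest inside and the highest outside library was narrow, and outside graft 3 lay lowest. The means were 12.4 ± 0.783 and 8.86 ± 2.18 CPM. The log2 fold change was 0.49 (SE 0.27, 95% interval -0.12 to 1.09, adjusted P = 0.639) in edgeR and 0.63 (95% interval 0.045 to 1.22, adjusted P = 0.370) in voomWithQualityWeights. Without outside graft 3 the edgeR value was 0.32. Cdkn2c (ENSMUSG00000028551.14, chr4:109660876-109667189, minus strand) overlaps no other annotated gene.

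Cdkn2a, whose products restrain CDK4 and CDK6 (p16INK4a) and stabilize p53 (p19ARF) and which is widely used as a marker of senescence, was near the limit of detection. It was counted 0, 10 and 4 times in inside grafts 1 to 3 and 8, 12, 15 and 8 times in outside grafts 1 to 4, which equal 0, 0.443 and 0.168 CPM inside and 0.426, 0.533, 0.603 and 0.324 CPM outside. Inside grafts 1 and 3 were the lowest of the 7 libraries and inside graft 2 lay within the outside range. For comparison, 3 counts, the upper limit that a count of 0 allows, equalled 0.118 to 0.160 CPM across the libraries. The means were 0.204 ± 0.224 and 0.471 ± 0.122 CPM, with a log2 fold change of -1.20 (SE 1.11, 95% interval -3.67 to 1.27, adjusted P = 0.822) in edgeR and -2.23 (adjusted P = 0.577) in voomWithQualityWeights. The edgeR interval allows a difference in either direction.

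Summed over the 4 inhibitor genes, the level per length was 11.8, 14.3 and 9.53 RPKM inside and 8.59, 10.1, 8.38 and 8.93 RPKM outside the graft. Inside grafts 1 and 2 were the highest and inside graft 3 lay below outside graft 2. The summed level of Cdk4 and Cdk6 was 40.6 ± 0.676 RPKM inside and 43.3 ± 3.96 RPKM outside, so in both groups the RNA of the kinases exceeded that of the inhibitors.

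Rb1, the substrate of the kinases, had 63.1, 46.2 and 37.0 CPM inside and 49.5, 45.1, 67.5 and 70.0 CPM outside the graft. Inside graft 3 was the lowest and outside graft 4 the highest, with the other libraries mixed between them. The means were 48.8 ± 13.3 and 58.0 ± 12.6 CPM and the edgeR log2 fold change was -0.25 (SE 0.22, 95% interval -0.74 to 0.24, adjusted P = 0.815). Rb1 (ENSMUSG00000022105.6, chr14:73183673-73325822, minus strand) shares 488 exon bases with Rcbtb2 and 408 with Lpar6, on the opposite strand. Both neighbours had more counts than Rb1, at 271 and 310 CPM inside and 225 and 372 CPM outside the graft, and how the reads over the shared bases were divided was not measured.

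**Figure D3:**
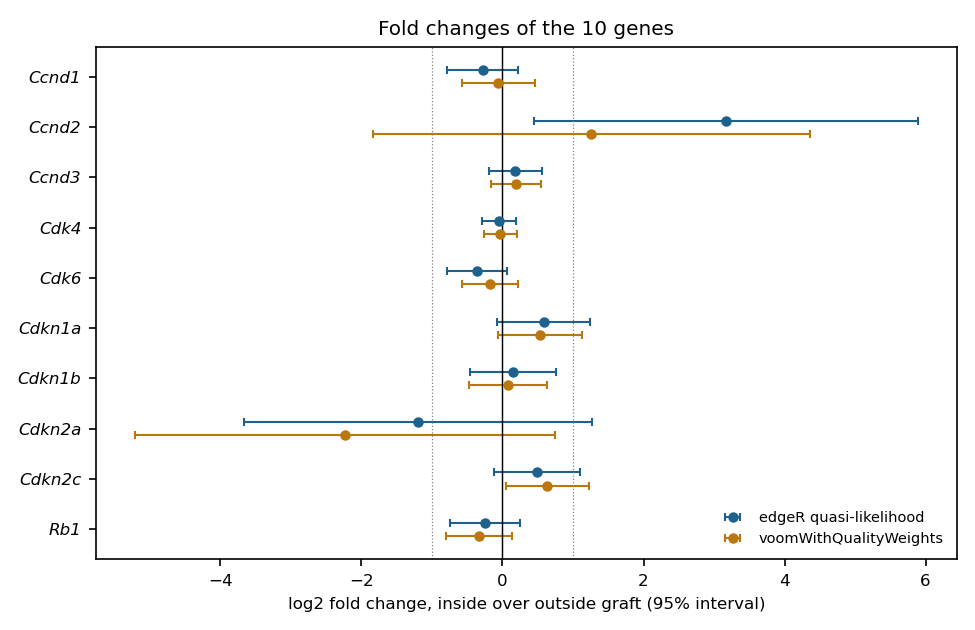
Log2 fold change, inside over outside graft (horizontal axis), of the 10 genes with 95% intervals, from edgeR (blue) and voomWithQualityWeights (orange). Intervals cross 0 for all genes except Ccnd2 in edgeR and Cdkn2c in voomWithQualityWeights, and are widest for the low-count genes Ccnd2 and Cdkn2a.

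Ordered by the mean RPKM over the 7 libraries, the kinase Cdk4 led and Cdkn2a and Ccnd2 came last. Cdk4 was highest at 35.9 RPKM, above 92.0% of the genes tested, and exceeded every other member in each library. Ccnd1 (14.6 RPKM), Ccnd3 (9.91 RPKM), Rb1 (8.99 RPKM) and Cdk6 (6.24 RPKM) followed, and neighbours among them overlapped in range. Ccnd1 exceeded Ccnd3 in 6 of 7 libraries, Ccnd3 exceeded Rb1 in 5 and Rb1 exceeded Cdk6 in 5.

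The inhibitors Cdkn2c (3.87 RPKM), Cdkn1a (3.76 RPKM) and Cdkn1b (2.30 RPKM) came next. Cdk6 exceeded Cdkn2c in all 7 libraries. Cdkn2c and Cdkn1a did not differ beyond their spread, with Cdkn2c higher in 4 of 7 libraries, whereas Cdkn1a exceeded Cdkn1b in all 7. Cdkn2a (0.304 RPKM) and Ccnd2 (0.131 RPKM) were lowest, above 8.39% and 2.43% of the genes tested. Cdkn2a exceeded Ccnd2 in 5 of 7 libraries. These levels use the merged exon length of all annotated transcripts and understate a gene whose short transcripts predominate.

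**Figure D4:**
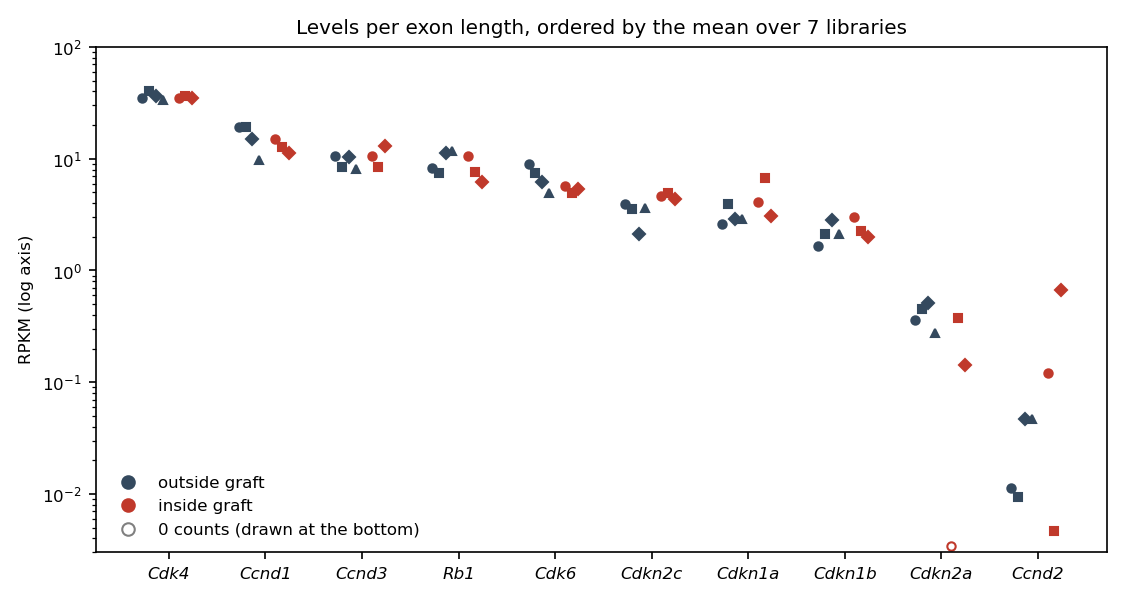
RPKM (vertical log axis) of the 10 genes in each library, ordered by the mean over 7 libraries, outside graft dark and inside graft red, with the shape giving the replicate. Cdk4 lies on top in every library, and Cdkn2a and Ccnd2 lie lowest, with the 0 counts of Cdkn2a in inside graft 1 drawn as an open point at the bottom.

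Around the 10 entry genes, 42 of 58 tested genes in 7 lists of the pathway had a positive log2 fold change. The median over all genes tested was -0.0064. Cyclin E and A with CDK2 gave 7 of 8, E2F and pocket proteins 9 of 12 and proliferation markers 10 of 10. The other 4 lists gave 16 of 28. With a threshold of 0.05 on the adjusted P, edgeR called 0 of the 58 and voomWithQualityWeights 3, all of which rose inside the graft. The 3 called genes were E2f7, an atypical E2F that represses E2F targets, Top2a, the topoisomerase that untangles replicated DNA, and Birc5 (survivin), which acts in chromosome segregation. Of these, E2f7 and Top2a passed the filter on low counts only because of the inside libraries, where they were high. Genes so low in most outside libraries could be tested only if higher inside. DESeq2 called 7 of the 58 (Ccna2, E2f7, E2f8, Tfdp1, Ccnb1, Birc5 and Bub1), and Top2a was not among them. Over all genes tested the shares called were 0.0983% in edgeR, 0.492% in voomWithQualityWeights and 2.75% in DESeq2. At an unadjusted P below 0.05 edgeR returned 18 of the 58, against 9.55% of all genes, and voomWithQualityWeights 22, against 12.2%. All lists were chosen with earlier results of these data known, so such counts describe the lists and are not a test of them.

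E2f7 was counted 44, 31 and 92 times inside and 3, 1, 0 and 0 times outside the graft, or 1.73, 1.37 and 3.87 CPM against 0.160, 0.0444, 0 and 0 CPM. All inside libraries lay above all outside libraries, but a gene this low outside the graft could pass the filter on low counts only if higher inside. Its log2 fold change was 5.48 (SE 1.11, adjusted P = 0.0926) in edgeR and 6.03 (SE 1.11, adjusted P = 0.0453) in voomWithQualityWeights, values that depend on how the counts of 0 are handled. Of the 12 genes of E2F and pocket proteins 9 were higher inside, with a median log2 fold change of 0.36. The groups did not overlap in 6 of the 12 (10.7% of all genes tested), of which 4 were higher inside and 2 lower. Of the 5 with an unadjusted P below 0.05 in edgeR, 4 were higher inside and the other lower. The lowest edgeR log2 fold change in this list was -0.50. E2f8, the paralog of E2f7, had an edgeR value of 3.07 (adjusted P = 0.162) and E2f1, an activator, 2.22 (adjusted P = 0.471).

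The 8 genes around cyclin E, cyclin A and CDK2 had a median log2 fold change of 0.85, with 7 higher inside the graft. In 4 of the 8 the inside libraries all exceeded the outside ones, against 5.65% of all genes tested. Ccna2, the S-phase cyclin, had 7.25, 9.49 and 19.2 CPM inside and 0.958, 3.42, 1.77 and 2.79 CPM outside. All inside libraries exceeded all outside ones, with an edgeR log2 fold change of 2.42 (adjusted P = 0.0933) and an adjusted P of 0.0597 in voomWithQualityWeights. The cyclin E genes Ccne1 and Ccne2 had edgeR values of 3.28 (adjusted P = 0.419) and 1.31 (adjusted P = 0.552).

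All 10 proliferation markers were higher inside the graft without overlap between the groups (5.65% of all genes tested), with a median edgeR log2 fold change of 2.32. All 10 had an unadjusted P below 0.05 in edgeR and in voomWithQualityWeights, against 9.55% and 12.2% of all genes. This list too was chosen with earlier results of these data known, so the counts only describe it. Top2a had 30.5, 25.8 and 27.2 CPM inside and 0.106, 9.51, 0.0402 and 0.202 CPM outside, where outside graft 2 stood apart. Its log2 fold change was 3.50 in edgeR (adjusted P = 0.356) and 6.71 in voomWithQualityWeights (adjusted P = 0.0316). Birc5 had 8.94, 8.91 and 16.8 CPM inside and 2.24, 4.89, 0.563 and 1.38 CPM outside, with 2.35 in edgeR (adjusted P = 0.174) and 3.02 in voomWithQualityWeights (adjusted P = 0.0482). Mki67 and Ccnb2, a mitotic cyclin, had edgeR values of 4.89 (adjusted P = 0.109) and 3.72 (adjusted P = 0.165). The proliferation markers were higher in the inside libraries, which also held more neutrophil and monocyte markers, and among these libraries the summed markers followed the same order. Among the outside libraries they did not. Outside graft 2 had the most proliferation markers (89.9 CPM) with 0.311 CPM of neutrophil markers, against 58.4 and 169.8 CPM in outside graft 3. The part of such cells in the proliferation markers was not tested. Summed over the 10 proliferation markers, inside grafts 1 to 3 had 199.8, 163.4 and 238.8 CPM, against 46.2 to 89.9 CPM outside.

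The 7 genes of the DREAM and MuvB complexes, which keep cell-cycle genes silent in resting cells or switch them on late in the cycle, had a median of 0.094. Mybl2 and Foxm1, the activators of the list, had edgeR log2 fold changes of 1.94 and 1.65, with adjusted P = 0.658 and 0.671, and Lin54, a DNA-binding subunit, had -0.37 (adjusted P = 0.671). The other CDK inhibitor genes had a median of 0.47 over 3 genes, with Cdkn2d (p19INK4d) at 0.76, Cdkn2b (p15INK4b) at 0.47 and Cdkn1c (p57) at -0.23. Adjusted P values in edgeR were 0.612, 0.968 and 0.874.

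Upstream regulators had a median of -0.064 over 7 tested genes of 8 listed. Ezh2, which represses the Cdkn2a locus in many cells, had a log2 fold change of 0.49 (adjusted P = 0.745), Foxo4 0.41 (adjusted P = 0.915) and Trp53, the gene of p53, -0.19 (adjusted P = 0.655) in edgeR. The p53 target genes had a median of 0.11 over 11 tested of 12, beside the 0.58 of Cdkn1a. Phlda3 was at 1.88 (adjusted P = 0.793), Gadd45a at 0.73 (adjusted P = 0.709) and Zmat3 at -0.46 (adjusted P = 0.891) in edgeR, the last with 0.38 in voomWithQualityWeights. In these 4 lists, 0 of 28 tested genes were called at 0.05 by edgeR, voomWithQualityWeights or DESeq2, against 0.0983%, 0.492% and 2.75% of all genes. The unadjusted P was below 0.05 for 1 in edgeR and 3 in voomWithQualityWeights, against 9.55% and 12.2% of all genes. The 1 in edgeR was a p53 target gene that was lower inside the graft.

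**Figure D5:**
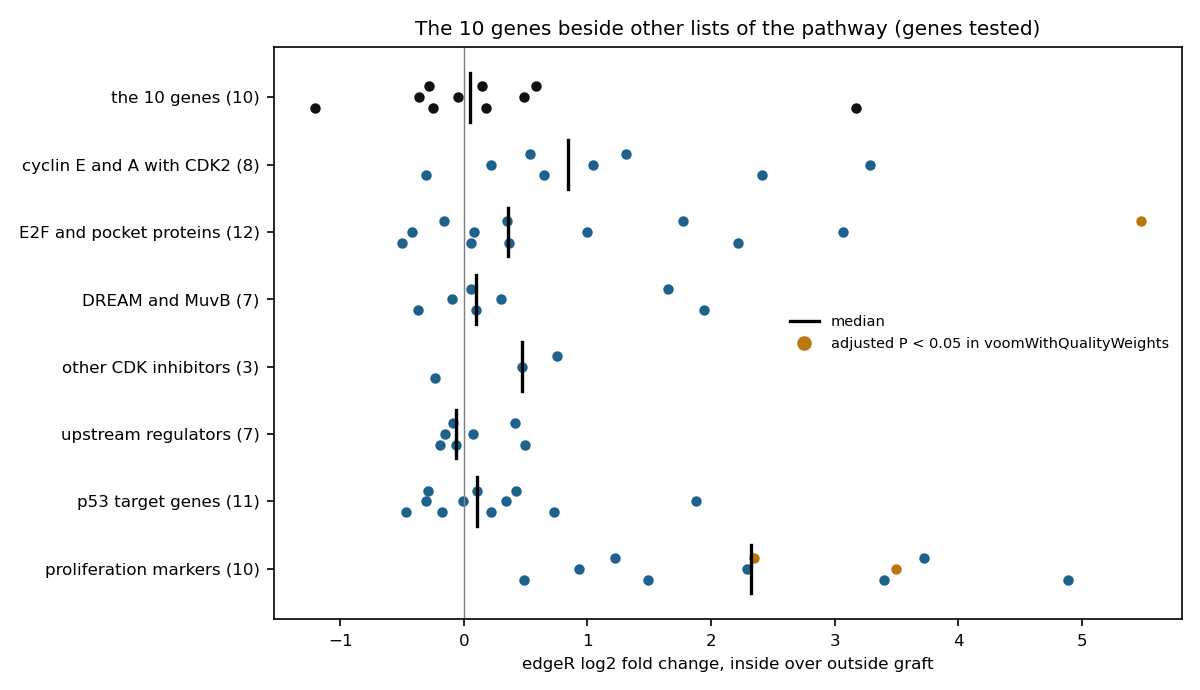
The edgeR log2 fold changes, inside over outside graft (horizontal axis), of the 10 genes (black) and of the 58 tested genes in 7 other lists of the pathway (blue), with medians as black bars and the 3 genes past an adjusted P of 0.05 in voomWithQualityWeights in orange. The median of the 10 genes is 0.051 and that of the proliferation markers 2.32.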

How the data were processed

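Microglial RNA was measured by bulk RNA-seq (SMARTer v4 cDNA, Nextera XT, single reads) in 3 inside graft and 4 outside graft libraries, grouped by their labels. The authors aligned the reads with STAR 2.7.2a to GRCm38.p6 and used featureCounts 1.6.2 with GENCODE M21 to make the deposited counts, which are whole reads per gene name with no normalization. Strand was ignored, multi-mapping reads were dropped and a read went to the gene it overlapped most, so overlapping genes can exchange reads. The deposited exon length was used for RPKM.

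From these counts, edgeR 4.0.16 (R 4.3.3) was run with filterByExpr by group, TMM, glmQLFit and glmQLFTest, with Benjamini-Hochberg adjustment over 15257 genes and a threshold of 0.05. The study's test, voomWithQualityWeights (limma 3.58.1), and DESeq2 1.42.0 were run on the same genes. Standard errors in edgeR are those implied by the F statistic. No pseudocount was added to the counts before the tests. Within them, voomWithQualityWeights adds a small constant to each count before taking logarithms. The edgeR fold changes, and the standard errors taken from them, include a small prior count. The scripts were tested on simulated data. Totals per library set the counting precision, and without molecular identifiers a molecule can be read more than once, so intervals and limits from counts cover counting error only.

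The 10 genes and all lists were chosen with earlier results of these data known. Named from the lists were genes past 0.05 in edgeR or voomWithQualityWeights and the 3 largest edgeR fold changes of each list, and, as most like, the 3 genes nearest to the gene with the smallest edgeR P. Alternatives were other normalizations, filters, tests and thresholds, the replicate number as a block and each library left out. All pairs of libraries in a group differed beyond counting noise. Promoter entries were matched by symbol for 7 of the 10 genes.

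Marker lists served to describe the sorted cells. Besides those in the report, the summed CPM inside and outside the graft was 38759 to 44618 and 43570 to 49651 for microglia, 30.4 to 51.3 and 33.8 to 37.9 for lymphocytes (mostly Cd79b), 3.19 to 6.05 and 3.11 to 10.3 for neurons, 247 to 291 and 324 to 350.0 for astrocytes, 70.5 to 76.8 and 72.8 to 82.1 for the oligodendrocyte lineage and 30.6 to 39.6 and 36.7 to 61.2 for endothelial cells.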

Additional observations from a re-analysis of the deposited data

Results flagged for a closer look

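Of 27 values looked at over the 4 outside graft libraries, 2 had one library far from the others, where chance gives 1.35. Summed neutrophil markers reached 169.8 CPM in outside graft 3 against 0.266 to 17.8 CPM in the other outside libraries. Top2a reached 9.51 CPM in outside graft 2 against 0.0402 to 0.202 CPM in the others. Groups of 3 libraries are too small for this rule, so the high Ccnd2 value of inside graft 3 was not examined by it.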

How the results depend on the processing

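Under 25 alternatives, 0 of the 10 genes passed an adjusted P of 0.05, the lowest adjusted P being 0.170. Of 236 recomputed fold changes of the 10 genes, 7 turned their sign. They came from leaving out inside graft 1 (Cdkn1b, -0.031 in edgeR and -0.11 in voomWithQualityWeights), inside graft 3 (Ccnd1 at 0.011 and Ccnd2 at -0.11, both in voomWithQualityWeights) or outside graft 2 (Cdk4 at 0.0076 in edgeR and 0.010 in voomWithQualityWeights, Ccnd1 at 0.052 in the latter), and the cause was not tested. Over the libraries left out, edgeR gave -0.084 to 0.0076 for Cdk4 and -0.031 to 0.30 for Cdkn1b. Pathway list genes past 0.05 numbered 0 in edgeR, 3 in voomWithQualityWeights, 7 in DESeq2, 8 without a filter on low counts and 1 where each library had to hold 10 counts. With one library left out they ranged from 0 to 6 (6 in voomWithQualityWeights without inside graft 2). Over all genes, edgeR called 15, voomWithQualityWeights 75 and DESeq2 420, and edgeR called 366 without a filter, 92 under that stricter filter, and from 0 (inside graft 3 or outside graft 4 left out) to 73 (inside graft 2 left out). On the CPM scale Ccnd1 made up 39.5% of the D cyclins inside and 46.8% outside, and Ccnd3 59.0% and 53.04%, by construction of the length correction.

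The deviations of same-numbered libraries from their group means correlated at -0.071, 0.11 and 0.099, and 2 of the 3 inside libraries correlated best with their own number. The labels give no pairing and the first correlation is negative, so the numbers were not taken to pair the libraries, which does not show that they are unpaired. In a fit with a replicate block (no outside graft 4) 0 of the 10 genes passed, the pathway lists had 0 genes in edgeR and 3 in voomWithQualityWeights, and over all genes edgeR called 43 and voomWithQualityWeights 265. Without outside graft 4 and with no block these tests called 0 and 1. With the block, Ccnd1 and Cdk6 had edgeR log2 fold changes of -0.45 and -0.49 (unadjusted P = 0.0155 and 0.0149, adjusted P = 0.417 and 0.413). With no block and without outside graft 4 they had -0.45 and -0.50 (unadjusted P = 0.0257 and 0.0142, adjusted P = 0.509 and 0.412). In voomWithQualityWeights with the block both had -0.48 (unadjusted P = 0.0071 and 0.0080, adjusted P = 0.170 and 0.184). Without the block and outside graft 4 this test gave -0.39 and -0.41. For Ccnd2 it gave 3.06 with the block (unadjusted P = 0.0135, adjusted P = 0.244) and 1.87 without the block and outside graft 4. Ccnd2 and Cdkn2a had too few counts for the stricter filter. Their low counts leave the widest intervals of the 10.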
